A study of Sus scrofa with 6 samples.

Results

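The genes described here are 10 components of the myostatin, activin and TGF-beta system that restrains muscle growth, namely the ligands MSTN, INHBA, TGFB1, TGFB2 and TGFB3, the secreted antagonists FST and FSTL3, the activin type II receptors ACVR2A and ACVR2B, and the inhibitory SMAD gene SMAD7. They were taken by gene symbol from the deposited table of 25322 pig genes, keeping for a symbol with several rows the one with most counts. The table held 9 of the 10, and FSTL3 was not analysed here. Of these, 8 passed the filter on low counts and INHBA did not. RNA sequencing was done on longissimus dorsi, the back muscle sold as pork loin, in 3 libraries from Wei pigs and 3 from Yorkshire pigs. The Wei pigs were slaughtered at 90 kg after free access to feed and water, and the Yorkshire pigs were reared in a similar way, with no weight given. Sex and age are not stated, and nothing in the labels says that the 3 libraries of a breed are 3 animals. Y chromosome genes had 6901 counts in Wei replicate 2 against 9 and 14 in Wei replicates 1 and 3. Wei replicate 2 thus came from another animal than those. The p-values reflect library-to-library spread, which among the other libraries may be technical.

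Myostatin, the product of MSTN, is a secreted factor made mainly by muscle fibres, and its loss or reduction gives heavily muscled cattle, sheep, dogs and mice. It binds ACVR2B and ACVR2A at the cell surface, a type I receptor is then activated, and SMAD2 and SMAD3 carry the signal to the nucleus. Activin A, a dimer of the INHBA product, uses the same type II receptors, while the TGF-beta ligands use a receptor pair of their own and the same SMADs. Follistatin (FST), FSTL3 and the WFIKKN proteins capture ligands outside the cell, and SMAD7 is a feedback inhibitor inside it. The genes are thus a mixture of brakes and of inhibitors of those brakes.

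The libraries held between 15285197 and 27096747 gene counts. Of 8 listed muscle fibre genes 6 were found, none of them at 0, with a summed level between 79640 and 153019 CPM (library-scaled counts, with TMM scaling) in Wei and between 130813 and 151443 in Yorkshire. Some libraries stood apart. Wei replicate 2 had 6901 counts on Y chromosome genes, against at most 14 in any other library. Over 16 leukocyte genes the summed level was 26.6 to 32.2 CPM in Wei, against 116 CPM in Yorkshire replicate 3 and 28.8 and 34.1 CPM in the other Yorkshire libraries. Wei replicate 1 had the lowest summed level of 9 fibroblast genes, 548 CPM, against 1548 and 1228 in the other Wei libraries and 2028 to 3356 in Yorkshire.

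MSTN was the most abundant of the 9 genes. Compared per unit of length, in the deposited FPKM values, it averaged 14.4 ± 7.30 FPKM in Wei and 38.0 ± 14.6 in Yorkshire (SD, n = 3 each), and its mean over all libraries exceeded that of 93.0% of genes in the table. TGFB2 followed at 5.27 ± 1.59 FPKM in Wei and 7.10 ± 1.23 in Yorkshire, and MSTN was above TGFB2 in 6 of 6 libraries. FST came next by its overall mean, with 3.24 ± 1.64 FPKM in Wei and 5.68 ± 2.96 in Yorkshire. The receptor genes were close to it, ACVR2B with 4.24 ± 0.124 FPKM in Wei and 3.32 ± 0.248 in Yorkshire and ACVR2A with 3.25 ± 0.0647 in Wei and 3.27 ± 0.472 in Yorkshire. FST exceeded ACVR2B in only 3 of 6 libraries, so these neighbours did not differ beyond their spread.

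Lower in the order, TGFB1 averaged 1.58 ± 0.262 FPKM in Wei and 1.995 ± 0.286 in Yorkshire, and SMAD7 1.45 ± 0.574 in Wei and 2.07 ± 1.67 in Yorkshire. TGFB1 was above SMAD7 in 4 of 6 libraries, and their ranges overlapped. TGFB3 averaged 0.582 ± 0.297 FPKM in Wei and 0.868 ± 0.309 in Yorkshire. INHBA was the least abundant, between 0.0704 and 0.134 FPKM in Wei and between 0.0296 and 0.254 in Yorkshire. Only 2 steps of this order separated the whole ranges of the libraries, that from ACVR2A to TGFB1 and that from TGFB3 to INHBA.

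**Figure D1:**
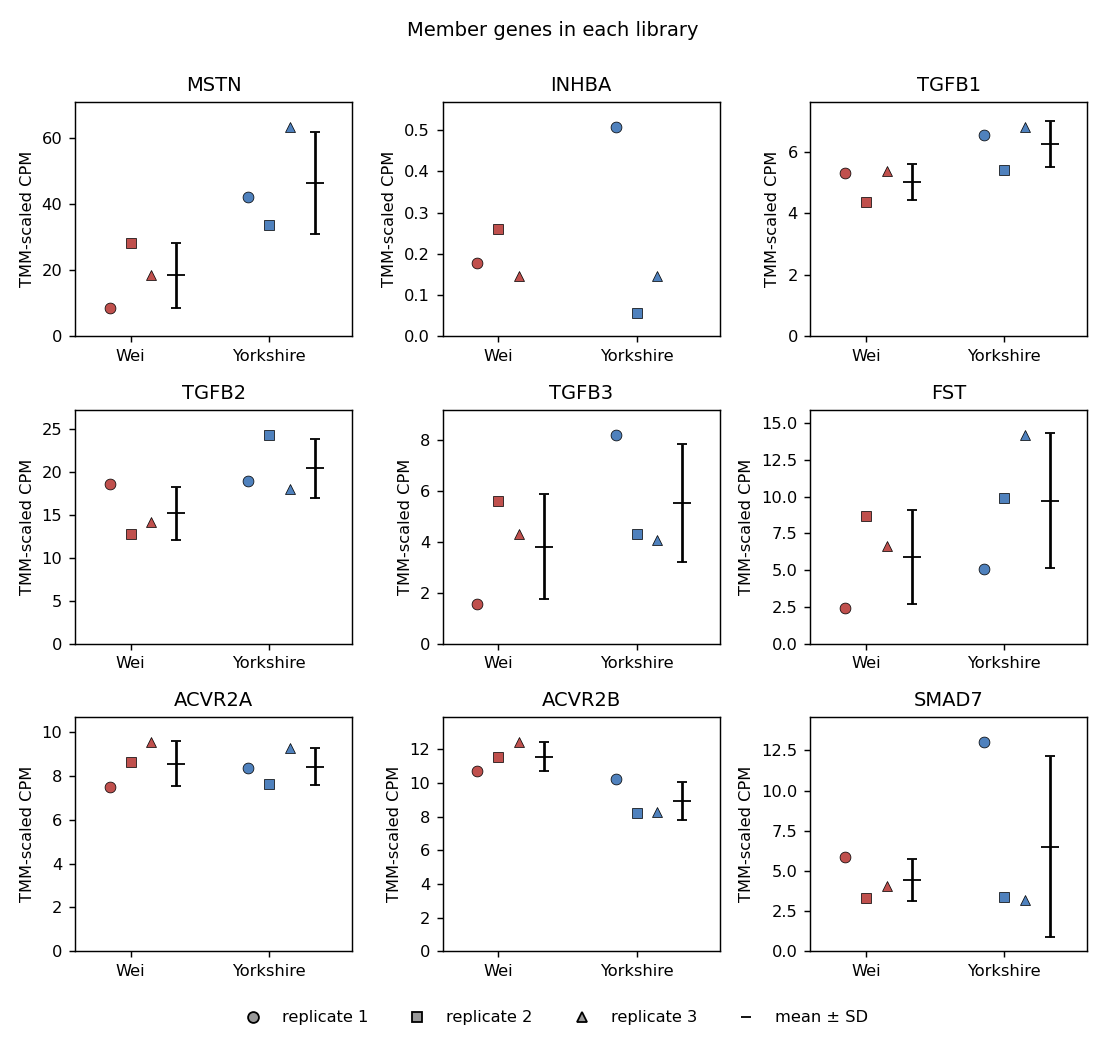
Level of each of the 9 genes in TMM-scaled CPM (vertical axes, linear from 0), Wei on the left and Yorkshire on the right of each panel; symbols are single libraries and bars are mean ± SD, left out for INHBA with its 1 to 13 counts. All 3 MSTN values in Wei, 8.52 to 28.2 CPM, lie below those in Yorkshire, 33.6 to 63.4 CPM, while ACVR2A overlaps and SMAD7 has 1 high library, Yorkshire replicate 1.

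The breed comparison asks whether these brakes differ between Wei and Yorkshire loin. With edgeR's quasi-likelihood test, adjusted by Benjamini-Hochberg over 13209 genes with a threshold of 0.05, 0 of the 8 tested genes passed, beside 5.08% of all genes. Before adjustment, 2 of 8 had a p under 0.05, MSTN lower and ACVR2B higher in Wei, where 23.3% of all genes tested stood below that value. DESeq2 called 1 of 8, MSTN, against 9.78% of all genes, and limma voom called 0 of 8, against 4.88%. The log2 fold change, Wei over Yorkshire, was negative for 6 of the 8 and positive for 2, with a median of -0.48 beside -0.02 over all genes tested. In whole muscle, fewer cells of a type and less RNA per cell cannot be told apart.

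Of the ligands, MSTN (ENSSSCG00000016047, chromosome 15, 105734307 to 105739335 in Sscrofa10.2) had 8.52, 28.2 and 18.6 CPM in Wei replicates 1 to 3, against 42.2, 33.6 and 63.4 CPM in Yorkshire replicates 1 to 3. The breeds did not overlap, and within each breed the highest library was well above the lowest, by 3.31 times in Wei and 1.89 times in Yorkshire. The fitted difference was 2.52-fold, or -1.33 ± 0.40 on the log2 scale (SE), and edgeR gave it an adjusted p of 0.0921. Of all genes tested, 10.17% had a p at or below that of MSTN, and 3.88% had a larger change in either direction. Without Wei replicate 1 its log2 fold change was -0.98 and without Wei replicate 2 it was -1.76, with edgeR adjusted p of 0.135 and 0.0586, and no library left out in turn brought it under 0.05. DESeq2 put it at -1.32 with an adjusted p of 0.00667.

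MSTN was lowest in Wei replicate 1, where the summed levels of the fibroblast genes and of the muscle fibre genes were also lowest. The fibre sum was 79640 CPM in that library against at least 117713 in each of the other 5, with 34102 of the 79640 from ACTA1. Single fibre genes differed. ACTA1, CKM, TNNC2 and MYLPF were lowest in Wei replicate 1, TTN was lower in Wei replicate 3, and DES was highest in Wei replicate 1, at 8058 CPM. MSTN was highest in Yorkshire replicate 3, which also had the highest summed level of the leukocyte genes. Of the leukocyte genes 16 of 16 had counts, CD163 just 1. The 12 that were tested all had negative log2 fold changes, with a median of -1.32, and 0 passed edgeR's test, beside 5.08% of all genes. Before adjustment 7 of the 12 had a p under 0.05, where 11.8% of all genes did with Wei lower. For 4 of the 12 all Wei values were below all Yorkshire values, beside 15.3% of all genes. The part of fibres, fibroblasts and leukocytes in the MSTN difference was not tested. Without Yorkshire replicate 3 the log2 fold change of MSTN was -1.04, and it was -1.34 without Wei replicate 3.

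The 3 TGF-beta ligands had smaller negative fold changes, none past the threshold. TGFB2 (chromosome 10, 10354223 to 10478457) had 18.6, 12.7 and 14.2 CPM in Wei, against 18.9, 24.3 and 18.0 CPM in Yorkshire. Wei replicate 1 lay within the Yorkshire range, and the log2 fold change was -0.42 ± 0.19 (edgeR, adjusted p = 0.224). TGFB1, the isoform best known from immune cells and fibrosis (chromosome 6, 45127027 to 45139176), had 5.32, 4.36 and 5.38 CPM in Wei, against 6.57, 5.42 and 6.81 CPM in Yorkshire. These values just missed overlapping in CPM and overlapped in FPKM, and the log2 fold change was -0.32 ± 0.19 (edgeR, adjusted p = 0.335). TGFB1, like MSTN, was highest in Yorkshire replicate 3, the library with most leukocyte counts, and its log2 fold change without it was -0.25; the part of leukocytes was not tested.

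TGFB3 (chromosome 7, 105178633 to 105206982) had 1.54, 5.59 and 4.31 CPM in Wei, against 8.21, 4.31 and 4.08 CPM in Yorkshire. Wei replicate 1 was low and Yorkshire replicate 1 was high, and the other values overlapped. The log2 fold change was -0.54 ± 0.45 (edgeR, adjusted p = 0.499), which shrank to -0.16 when Wei replicate 1 was left out and to -0.14 when Yorkshire replicate 1 was. The share of the summed FPKM of the 3 TGF-beta ligands that came from TGFB2 was 77.0%, 66.1% and 67.3% in Wei, against 65.9%, 77.8% and 68.95% in Yorkshire. The breeds overlapped in this share (exact permutation test, two-sided, p = 0.8, where 0.1 is the smallest p that 3 against 3 libraries allow).

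INHBA (chromosome 18, 57997858 to 58009109) had 3, 4 and 3 counts in Wei and 13, 1 and 4 counts in Yorkshire. The 95% Poisson interval for 3 counts, as in Wei replicates 1 and 3, was 0.619 to 8.77. It was 6.92 to 22.2 for the 13 counts of Yorkshire replicate 1 and 0.0253 to 5.57 for the 1 count of Yorkshire replicate 2. The intervals cover counting error only and are not scaled for library size. INHBA was under the count filter and not tested, so these counts give no answer on a breed difference.

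Among the receptor genes ACVR2B, the main myostatin receptor (chromosome 13, 25421870 to 25450846), had 10.7, 11.6 and 12.4 CPM in Wei, against 10.24, 8.24 and 8.31 CPM in Yorkshire. It was the single gene of the 8 whose Wei values were all above the Yorkshire values, with MSTN and TGFB1 the opposite; over all genes tested, 14.3% did not overlap with Wei higher and 15.3% with Wei lower. The gap between Wei replicate 1 and Yorkshire replicate 1 was small. The log2 fold change of ACVR2B was 0.37 ± 0.16 (edgeR, adjusted p = 0.203), and it ranged from 0.32 to 0.48 with each library left out. ACVR2A (chromosome 15, 3828378 to 3911122) had 7.51, 8.65 and 9.54 CPM in Wei, against 8.36, 7.63 and 9.29 CPM in Yorkshire. Its log2 fold change was 0.02 ± 0.17 (edgeR, adjusted p = 0.951), with an approximate 95% interval from -0.30 to 0.35, and its sign turned with library size scaling and without Wei replicate 3 or Yorkshire replicate 2.

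The ratio of ACVR2B to ACVR2A, a comparison inside each library that needs no scaling between libraries, was 1.37, 1.29 and 1.26 in Wei, against 1.18, 1.04 and 0.862 in Yorkshire (FPKM). All Wei ratios were above all Yorkshire ratios (exact permutation test, two-sided, p = 0.1, the smallest possible). This ratio and 3 others were chosen after the values were seen, and its p adjusted over the 4 was 0.2.

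Among the antagonists FST, follistatin (chromosome 16, 34778435 to 34785305), had 2.43, 8.65 and 6.61 CPM in Wei, against 5.04, 9.90 and 14.2 CPM in Yorkshire. The breeds overlapped, and the log2 fold change was -0.72 ± 0.48 (edgeR, adjusted p = 0.394). It came to -0.33 when Yorkshire replicate 3 was left out and to -0.35 when Wei replicate 1 was, the libraries that were also highest and lowest for MSTN. The ratio of MSTN to FST in FPKM was 4.97, 4.62 and 3.997 in Wei, against 11.8, 4.803 and 6.32 in Yorkshire. Wei replicate 1 stood above Yorkshire replicate 2 in this ratio, so the breeds overlapped (exact permutation test, two-sided, p = 0.2, adjusted p over the 4 ratios = 0.267).

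SMAD7 (chromosome 1, 108087684 to 108117509) had 5.86, 3.32 and 4.06 CPM in Wei, against 13.0, 3.37 and 3.17 CPM in Yorkshire. Yorkshire replicate 1 alone was high. The log2 fold change was -0.57 ± 0.54 with all libraries (edgeR, adjusted p = 0.558) and 0.43 without Yorkshire replicate 1 (edgeR, adjusted p = 0.434), so its direction rested on that library. Among other TGF-beta or BMP responsive genes, CTGF stood at 25.8 to 44.8 CPM in Wei, against 91.5 CPM in Yorkshire replicate 1 and 17.3 and 19.5 CPM in the other Yorkshire libraries. CTGF was singled out after its values were seen. Over the 16 tested genes of a list of TGF-beta and SMAD targets, SMAD7 and CTGF included, Yorkshire replicate 1 was the highest of the 6 libraries for 8 and the lowest for 1, and it was the lowest of the Yorkshire libraries for 6.

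**Figure D2:**
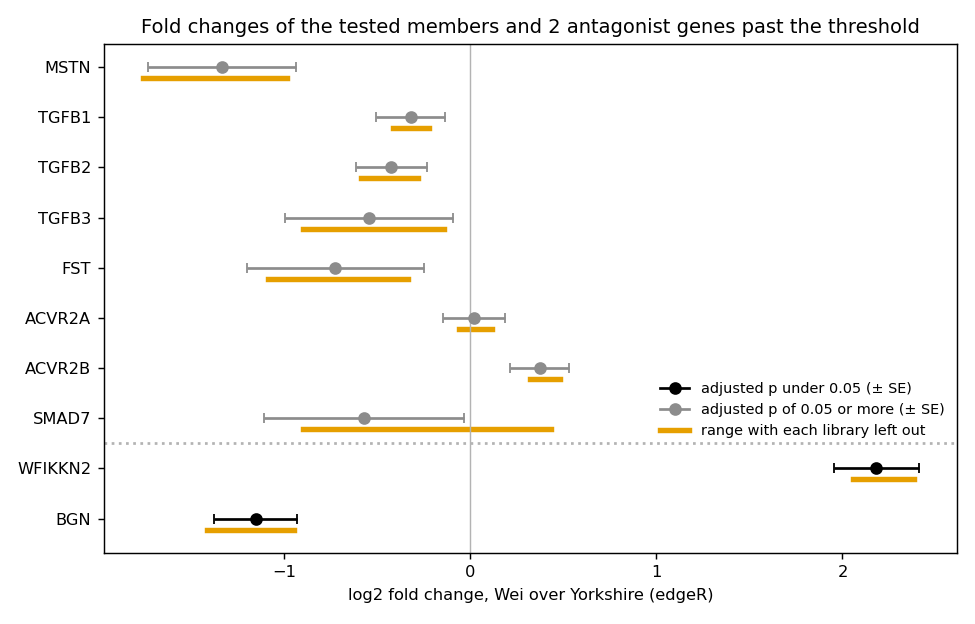
Log2 fold change, Wei over Yorkshire (horizontal axis), of the 8 tested genes and, under the dotted line, of 2 antagonist genes of the wider pathway; points and thin bars are edgeR estimates ± SE, black where the adjusted p was under 0.05, and orange bars span the estimates with each library left out. MSTN lies at -1.33 in grey, SMAD7 spans zero from -0.90 to 0.43, and WFIKKN2 stays between 2.06 and 2.39.

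The wider pathway was read from 5 lists of ligands, receptors, antagonists, SMAD regulators and target genes, in which 66 genes were tested. Of these, 2 passed edgeR's test, 1 higher and 1 lower in Wei, a share of 3.03% beside 5.08% of all genes. Both encode secreted binding proteins.

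WFIKKN2, also called GASP-1, encodes a secreted protein that binds myostatin and its propeptide and blocks the ligand, as shown in mice and in cultured cells. The gene (ENSSSCG00000017557, chromosome 12, 27282133 to 27288910) was higher in Wei, with 12.8, 9.04 and 10.8 CPM in Wei against 3.01, 2.05 and 2.11 CPM in Yorkshire. The lowest Wei library was well above the highest Yorkshire library. The mean was 10.9 ± 1.87 CPM in Wei and 2.39 ± 0.538 in Yorkshire (SD, n = 3 each), which is 4.54-fold in the fit, or 2.18 ± 0.23 on the log2 scale (edgeR, adjusted p = 0.00589). It passed with each of the 6 libraries left out in turn, with edgeR adjusted p between 0.00826 and 0.0339. Its highest value was in Wei replicate 1, where the summed levels of the fibroblast and muscle fibre genes were lowest. The part of that in the result was not tested.

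The level of MSTN was also set against that of WFIKKN2 inside each library. The ratio of MSTN to WFIKKN2 in FPKM was 1.97, 9.23 and 5.10 in Wei, against 41.4, 48.5 and 88.8 in Yorkshire. The highest Wei ratio was below every Yorkshire ratio, and the geometric means were 4.53 in Wei and 56.3 in Yorkshire. In FPKM, MSTN was lower and WFIKKN2 higher in Wei, each without overlap. The separation of the ratio therefore followed from those separate results and is no further evidence. The exact two-sided permutation p, fixed by the same separation, was 0.1, the smallest possible, and 0.2 adjusted over the 4 ratios. The pair was chosen after its values were seen.

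**Figure D3:**
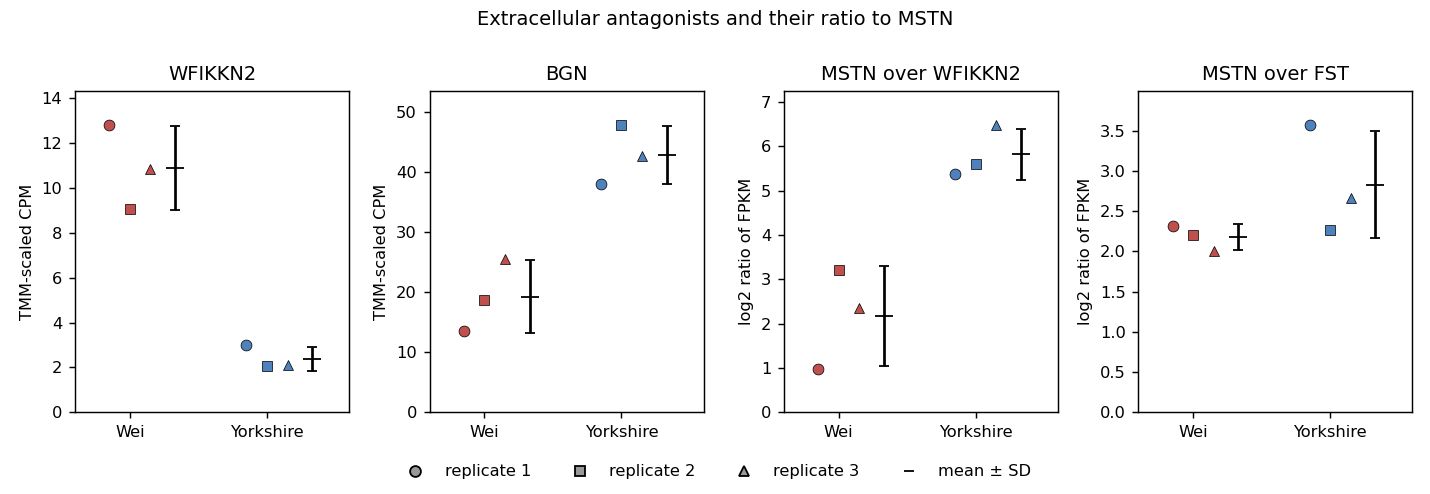
Levels of WFIKKN2 and BGN in TMM-scaled CPM (left panels) and log2 ratios of MSTN to WFIKKN2 and to FST from FPKM (right panels), Wei left and Yorkshire right in each; symbols are libraries and bars are mean ± SD (n = 3). WFIKKN2 is 9.04 to 12.8 CPM in Wei and 2.05 to 3.01 CPM in Yorkshire, and the ratio to FST overlaps between the breeds.

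BGN, biglycan, a small matrix proteoglycan that can bind TGF-beta (X chromosome, 141845599 to 141858874), was lower in Wei, with 13.5, 18.7 and 25.6 CPM in Wei against 38.1, 47.8 and 42.7 CPM in Yorkshire. The breeds did not overlap, and the log2 fold change was -1.15 ± 0.22 (edgeR, adjusted p = 0.0329). Its edgeR adjusted p was 0.0261 without Wei replicate 3 and between 0.0556 and 0.117 without any 1 of the other 5 libraries. Of 10 listed fibroblast genes 9 were found, none was at 0, and all 9 had negative changes, with a median of -0.87. Of these, 1 passed edgeR's test, DPT (11.1%, beside 5.08% of all genes), while DCN and MFAP5 were at -0.14 ± 0.23 and -0.12 ± 0.22. Their summed level was 548 to 1548 CPM in Wei against 2028 to 3356 CPM in Yorkshire. Much of that sum was COL3A1, with 220 to 887 CPM in Wei and 1379 to 2351 CPM in Yorkshire. The part of fibroblasts in the BGN value was not tested. In the same antagonist list 2 of 14 tested genes passed edgeR's test, 14.3% beside 5.08% of all genes. DESeq2 called 4 (9.78% of all genes) and limma voom 2 (4.88%). At an unadjusted p under 0.05, 4 were lower and 2 higher in Wei, beside 11.8% and 11.4% of all genes. The list median of the log2 fold change was -0.37, and -0.19 without Wei replicate 1. LTBP1 (-0.73 ± 0.21, adjusted p = 0.0851), which holds latent TGF-beta in the matrix, missed the threshold in edgeR, and passed in DESeq2 and in edgeR with the replicate number as a block. LTBP3 (-0.51 ± 0.13, edgeR adjusted p = 0.0574) also passed in DESeq2. BAMBI went the other way, at 0.90 ± 0.39 (edgeR, adjusted p = 0.206). LTBP1, LTBP3 and BAMBI were named after their values were seen.

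No ligand passed edgeR's test among 10 tested, with 2 at an unadjusted p under 0.05 (23.3% of all genes), 2 called by DESeq2 (9.78%) and 0 by limma voom (4.88%), and a list median of -0.24. Besides MSTN the second was GDF11, its closest relative, which signals through the same receptors. GDF11, named after its values were seen, had 2.31, 3.77 and 1.76 CPM in Wei, against 5.71, 4.15 and 5.83 CPM in Yorkshire. The breeds did not overlap, and the log2 fold change was -1.02 ± 0.30 (edgeR, adjusted p = 0.0915; 1 call in this list, GDF11, without Wei replicate 2). GDF9, best known as a growth factor of the ovary and next to MSTN in average CPM, which does not adjust for gene length, averaged 33.9 ± 4.17 CPM in Wei and 30.9 ± 0.451 in Yorkshire, which edgeR fitted as 0.13 ± 0.13 on the log2 scale (adjusted p = 0.576).

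No receptor or coreceptor passed among 12 tested, with 3 at an unadjusted p under 0.05, a share near the 23.3% of all genes, and 0 called by DESeq2 or limma voom, beside 9.78% and 4.88%. The list median was 0.10, and 0.03 without Wei replicate 3 or 0.04 without Yorkshire replicate 2. The BMP receptor genes BMPR2 and BMPR1A, highest by average CPM, had log2 fold changes of -0.15 ± 0.17 and -0.18 ± 0.12 (edgeR, adjusted p of 0.641 and 0.409). The 3 with an unadjusted p under 0.05 were ACVR2B, the activin type I receptor gene ACVR1B, at 0.59 ± 0.19 (edgeR, adjusted p = 0.112), and the endothelial type I receptor gene ACVRL1, at -0.56 ± 0.19 (edgeR, adjusted p = 0.128). ACVR1B pairs with ACVR2B in myostatin and activin signalling. ACVR1B and ACVRL1 were named after their values were seen.

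**Figure D4:**
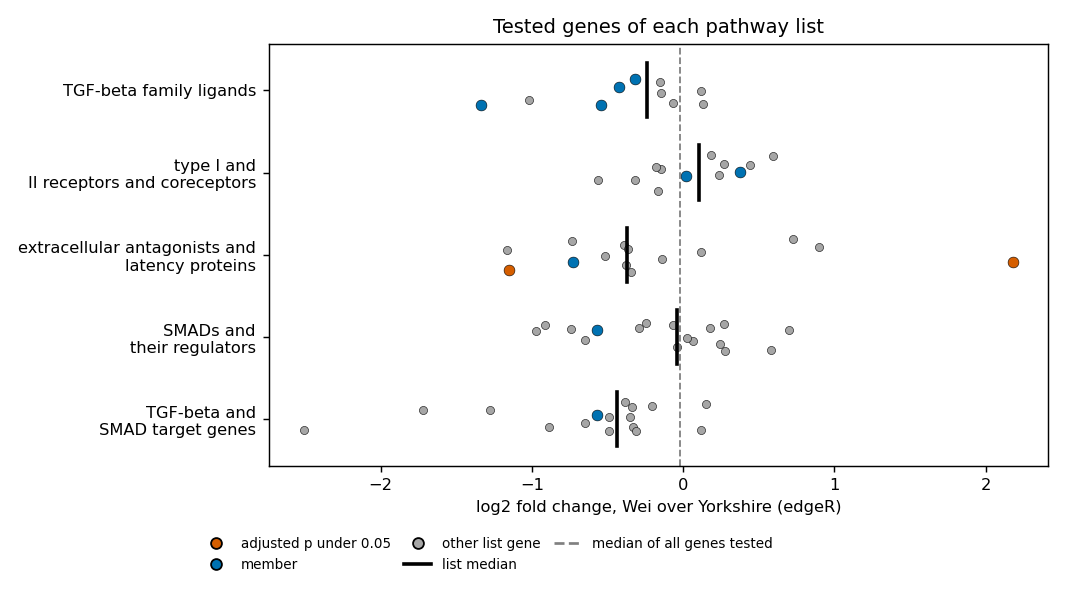
Log2 fold change, Wei over Yorkshire (horizontal axis), of each tested gene in the 5 pathway lists (rows); orange points passed an adjusted p of 0.05, blue points are the genes listed at the outset, black bars are list medians and the dashed line is the median of all genes tested (-0.02). The antagonist list holds both orange points, WFIKKN2 at 2.18 and BGN at -1.15, and the target gene list has the lowest median, -0.43.

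No SMAD or SMAD regulator passed among 17 tested, with 5 at an unadjusted p under 0.05 (23.3% of all genes), 3 called by DESeq2 (9.78%) and 0 by limma voom (4.88%). The median was -0.04, and between -0.10 and 0.04 with each library left out. The 2 of highest expression were WWP1, a ubiquitin ligase, at 0.58 ± 0.16 on the log2 scale (edgeR, adjusted p = 0.0727), and PPM1A, a phosphatase, at 0.07 ± 0.12 (edgeR, adjusted p = 0.766). SMAD3, a carrier of the myostatin and TGF-beta signal named after its values were seen, had 45.8, 46.1 and 29.3 CPM in Wei, against 53.0, 61.9 and 87.2 CPM in Yorkshire. Its values did not overlap, with a log2 fold change of -0.74 ± 0.23 (edgeR, adjusted p = 0.106), and its highest value was again in Yorkshire replicate 3. SMAD2, the other carrier, overlapped between the breeds, at -0.29 ± 0.20 (edgeR, adjusted p = 0.413). Of the 5 genes with an unadjusted p under 0.05, 3 were lower and 2 higher in Wei. WWP1 and NEDD4L were the higher ones, NEDD4L at 0.70 ± 0.23 (edgeR, adjusted p = 0.108). SMAD2 and NEDD4L were also named after their values were seen.

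No target gene passed among 16 tested, with 4 at an unadjusted p under 0.05 and 2 called by DESeq2, near the shares of all genes, 23.3% and 9.78%, and 0 by limma voom, beside 4.88%. The log2 fold change was negative for 14 of the 16, with a median of -0.43. The 2 of highest expression were the collagen genes COL3A1, at -1.72 ± 0.45, and COL1A2, at -1.28 ± 0.37 (edgeR, adjusted p of 0.0680 and 0.0883). Both are also among the fibroblast markers, of which all 9 had negative changes and 1 passed the threshold, so the lists are not independent. The part of fibroblasts in the target gene values was not tested. SKIL, a SMAD corepressor gene that is no fibroblast marker of the list used, was named after its values were seen. Its log2 fold change was -0.65 ± 0.22 (edgeR, adjusted p = 0.126), and its highest value, 57.4 CPM, was in Yorkshire replicate 1. Its Wei high of 32.6 CPM was just below its Yorkshire low of 32.8 CPM. The 2 target genes with positive changes, TAGLN at 0.15 ± 0.37 and LTBP2 at 0.12 ± 0.28, are no fibroblast markers of that list either.

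Genes were ranked by how closely their log2 CPM profile over the 6 libraries, centred on its own mean, followed that of MSTN. Among 7801 other genes with a symbol and an average log2 CPM of at least 1, the mean absolute difference was smallest for MEGF10 (0.20), GRM4 (0.27), PLCD1 (0.27), COL1A2 (0.29) and FAM46A (0.30), beside a median of 0.76. MEGF10 encodes a receptor of muscle satellite cells. It had 0.887, 1.95 and 1.81 CPM in Wei, against 5.47, 3.04 and 6.19 CPM in Yorkshire, with a log2 fold change of -1.67 ± 0.37 (edgeR, adjusted p = 0.0429). FST was the closest of the 7 other tested genes, at 0.41 and rank 73, and SMAD7 the farthest, at 1.04 and rank 7205. This ranking is a description over 6 libraries that share the breed difference.

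**Figure D5:**
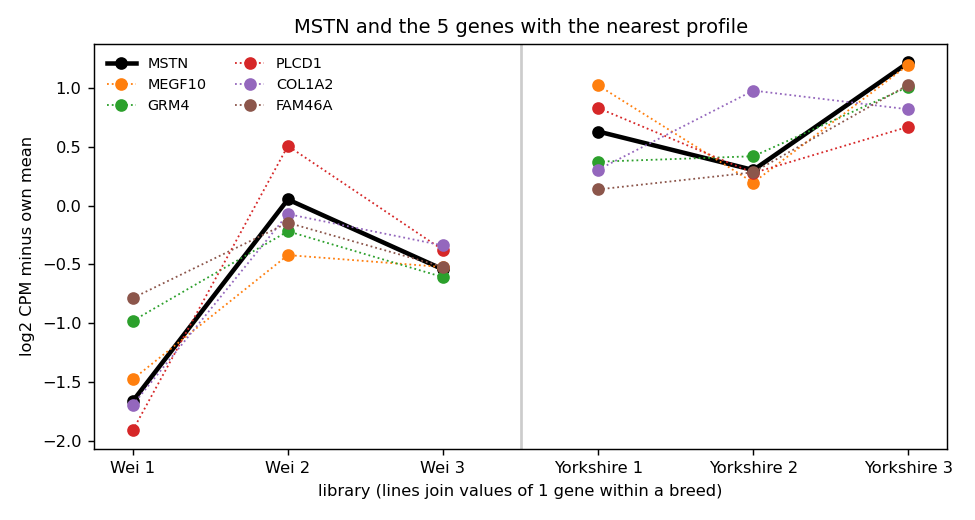
Log2 CPM minus each gene's own mean (vertical axis) in the 6 libraries (horizontal axis, Wei left, Yorkshire right) for MSTN (thick black) and the 5 genes nearest to it. All 6 genes are at their lowest in Wei replicate 1.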

How the data were processed

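Loin muscle RNA from 3 Wei and 3 Yorkshire libraries was analysed, grouped by the breed label. Per the labels' protocols, RNA was extracted with TRIZOL and libraries were made with a TruSeq RNA kit. Build Sscrofa10.2 and the tools TopHat2 2.0.9, CASAVA 1.7 and edgeR are named, with no roles, in the submitters' processing notes. How reads were counted, with which annotation and strand setting, is not given in the sources used here. The deposited table gives raw counts and FPKM for every gene in each library, per the file headers. Each FPKM was the count times a gene constant and a library constant over 4854 genes with over 200 counts in every library (largest deviation 0.000269%). FPKM was used only to compare levels between genes and for ratios within a library.

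The count test was edgeR 4.0.16's quasi-likelihood F test in R 4.3.3 with breed as the only term, after filterByExpr (minimum count 10) and TMM scaling; p-values were adjusted by Benjamini-Hochberg over 13209 genes, with a threshold of 0.05. SEs were taken as log2 fold change (absolute) divided by the root of F, and the approximate 95% interval is 1.96 SE to each side. With so few libraries such an interval is too narrow. For TGFB2 it would run from -0.80 to -0.05, though the edgeR p before adjustment was 0.0546. CPM is after TMM scaling; log2 CPM used a prior count of 2. Symbols missing in the table for 9160 IDs were filled for 1774 by ID, for lists only. Every pair of libraries differed by more than sampling noise (lowest chi-square per degree of freedom, 24.5). On simulated counts for this comparison, run on 13015 genes with 200 changed, 43.4% of 2-fold and 97.8% of 4-fold changes were recovered, with 7.69% false calls. Every simulated gene had the common dispersion, 0.0476, a coefficient of variation of 21.8%. In CPM that of MSTN was 53.3% in Wei and 33.1% in Yorkshire, so these rates do not carry over to genes with a wider spread.

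The genes, lists and rule for named genes were chosen with earlier results of these data known. The rule took the 10 genes, genes of each pathway list past the threshold or else its 2 of highest expression, and the 5 nearest MSTN profiles; others are said to be named later. Alternatives were RLE factors, library size alone, no count filter, a 1 CPM filter in 3 libraries, DESeq2 1.42.0, limma 3.58.1 voom, the replicate number as a block, a threshold of 0.01, and leaving out each library. Figures used matplotlib 3.10.9.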

Additional observations from a re-analysis of the deposited data

Results flagged for a closer look

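Y chromosome genes are used in no comparison. They summed to 6901 counts in Wei replicate 2, above the level in every Yorkshire library (at most 10) and in Wei replicates 1 and 3 (9 and 14). The labels give no sex. By these counts Wei replicate 2 came from an animal with a Y chromosome and the other libraries did not, so the breeds were not balanced for sex. The part of sex in the breed differences was not tested. Without Wei replicate 2 the edgeR log2 fold changes were -1.76 for MSTN, -1.09 for FST, 0.38 for ACVR2B and 2.31 for WFIKKN2, the last with an adjusted p of 0.00826.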

How the results depend on the processing

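Of the 8 tested genes, MSTN passed 0.05 in DESeq2 (-1.32, adjusted p = 0.00667) and none passed in any other alternative run. Signs turned for ACVR2A with library size alone (-0.011), without Wei replicate 3 (-0.062) and without Yorkshire replicate 2 (-0.043), within -0.062 to 0.12 over the libraries left out, and for SMAD7 without Yorkshire replicate 1 (0.43, within -0.90 to 0.43). DESeq2 called 1291 genes in place of 671 (713 higher and 578 lower in Wei, in place of 361 and 310), 1 of the 8 genes, and 2 ligands, 4 antagonists, 3 SMAD genes and 2 target genes; the cause was not tested. Target genes numbered 1 with library size alone and 1 with no count filter. The stricter threshold of 0.01 left 52 genes (33 higher, 19 lower) and 1 antagonist, WFIKKN2. Leaving out 1 library, with fewer samples per fit, left 60 to 394 genes (37 to 259 higher, 23 to 135 lower), the lowest without Yorkshire replicate 2, with 0 to 1 ligands, 1 to 2 antagonists and 0 to 1 target genes. The replicate block gave 477 genes, 0 of the 8, 3 antagonists (LTBP1 gained) and 3 target genes; libraries with the same number had deviations from their breed means that correlated at 0.14, -0.0066 and 0.022, and the numbers were not read as a pairing. List medians moved by less than the spread between replicates under every alternative run, though with 1 library left out that of the antagonists came to -0.19, that of the receptors to 0.03 and that of the SMAD genes to between -0.10 and 0.04. With RLE factors and library size alone, the median over all genes was -0.012 and -0.042. Depth limits INHBA, with 10 counts in Wei and 18 in Yorkshire.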
